A study of Mus musculus with 22 samples.

Results

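Aminoacyl-tRNA synthetases attach amino acids to their transfer RNAs, 1 enzyme for most amino acids, and so supply the ribosome with its substrates. The 7 genes described here encode cytosolic synthetases: *Sars* (seryl), *Tars* (threonyl), *Nars* (asparaginyl), *Kars* (lysyl), *Hars* (histidyl), *Vars* (valyl) and *Qars* (glutaminyl). They were taken by gene symbol from the array's annotation, and each had 1 probe, so that they make up 7 of the 9230 genes with a probe of a single symbol. All 7 probes passed the filter on dim probes, and none held a placeholder value on any array.

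RNA from the anterior neural tube of mouse embryos was amplified and hybridised to 22 single-colour CodeLink arrays. Arsenic-exposed embryos came from dams given sodium arsenate intraperitoneally, 9.6 mg of arsenic per kg, and control embryos from dams given water, 10 µL per g. Each dam was injected on gestational day (GD) 7 and again on GD 8, both times at hour 12. Collection at GD8:15 followed the later injection by 3 h, at GD9:00 by 12 h and at GD9:12 by 24 h. The arsenic groups held 4, 3 and 4 arrays in that order of stages, and the water-injected control groups 4, 4 and 3.

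Every dam was Folr2-/-, a knockout of a folate receptor gene that the control groups carried too, and no wild-type group was included. The embryos met arsenate through the dam, and no label ties an array to a dam or litter of its own, so the p-values below rest on the spread between arrays, which may be partly technical. The deposited values were linear intensities, which were quantile normalised on the log2 scale here. Every level below is such a log2 intensity unless it is called deposited, and 1 unit stands for a doubling. A difference was called when its limma p-value, adjusted over all 7830 probes tested by the Benjamini-Hochberg method, was under 0.05.

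Cytosolic synthetases fall into a pair of structural classes. Class II includes the seryl, threonyl, asparaginyl, lysyl and histidyl enzymes, and class I the valyl and glutaminyl enzymes. *Kars* and *Qars* proteins sit in the multisynthetase complex, a large assembly held together by scaffold proteins, and the valyl enzyme associates with elongation factor eEF1. When amino acids run short, uncharged tRNA activates the kinase GCN2 (*Eif2ak4*), which phosphorylates the initiation factor eIF2. Other stresses reach the same factor through other kinases. Translation of the transcription factor ATF4 then rises, and many synthetase genes, together with genes for amino acid synthesis and transport, are known ATF4 targets. That link is the reason for setting the synthetases beside the ATF4 pathway in embryos exposed to arsenate.

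Upstream sequences show where a composite ATF4 response element stands. RefSeq promoters of build GRCm38.p6 were at hand for 4 of the 7 genes, *Sars*, *Tars*, *Kars* and *Qars*, and those of *Nars*, *Hars* and *Vars* are named only. The motif searched was TGATGNAA, on both strands, within the 250 bases before each start. It was found before *Tars* only among the 4, on the reverse strand as TTGCATCA, with its first base 15 bases before the start. Of all 32851 promoters, 3.45% held it, and of the 22 ATF4 pathway genes with a promoter 6 did (*Asns*, *Atf3*, *Chac1*, *Nupr1*, *Slc7a11* and *Vldlr*). The *Tars* and *Qars* upstream regions are printed because both probes differed between stages, and windows before *Chac1* and *Asns* because they hold the motif in a pair of widely studied ATF4 targets. Capitals mark the motif, each sequence reads 5′ to 3′ on the gene's strand, and a match is a description of letters, not of binding.
Tars, chr15:11399659-11399908, minus strand: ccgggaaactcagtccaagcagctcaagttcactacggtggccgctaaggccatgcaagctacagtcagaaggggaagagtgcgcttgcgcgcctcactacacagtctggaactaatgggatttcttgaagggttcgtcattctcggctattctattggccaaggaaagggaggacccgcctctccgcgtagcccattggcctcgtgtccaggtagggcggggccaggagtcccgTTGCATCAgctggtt
Qars, chr9:108507755-108508004, plus strand: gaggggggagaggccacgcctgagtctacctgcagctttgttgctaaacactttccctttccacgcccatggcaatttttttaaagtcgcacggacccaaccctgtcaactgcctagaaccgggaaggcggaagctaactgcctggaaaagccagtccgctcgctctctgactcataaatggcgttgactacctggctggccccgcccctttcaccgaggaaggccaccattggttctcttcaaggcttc
Chac1, chr2:119351023-119351082, plus strand: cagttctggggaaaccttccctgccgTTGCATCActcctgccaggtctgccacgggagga
Asns, chr6:7693210-7693258, minus strand: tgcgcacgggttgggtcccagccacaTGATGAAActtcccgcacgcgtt
The same 8 letters, TTGCATCA, stood before *Tars* and *Chac1*, and the forward form TGATGAAA before *Asns*. The upstream 250 bases had a GC content of 57.6% in *Tars*, 56.0% in *Qars*, 52.4% in *Sars* and 64.4% in *Kars*, against a median of 52.4% over all promoters.

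Several facts of the arrays bear on the values. Array 3 of the arsenic group at GD8:15 had the lowest mean correlation with its group (r = 0.889, all arrays 0.889 to 0.973). It and array 3 of the arsenic group at GD9:00 stood apart in several of the 7 probes, so differences that these arrays move by much are also given without both. Control arrays 1 and 2 at GD9:00 had lower mean correlations (0.914 and 0.909) than arsenic array 3 at GD9:00 (0.916). Bands of dim neighbouring probes covered 9.6%, 8.71% and 7.52% of control arrays 1, 2 and 4 at GD9:00, and at most 5.64% of any other array. Of the 7 members only *Vars* lay in such a band, on control array 1 at GD9:00. The titles carry number codes that no label explains. By their leading digits the codes fall into 4 series, lettered A to D here. These letters are not in the titles, whose own C and T go with control and treated. The series moved with the stages: 6 of the 8 arrays at GD8:15 were of series D, and all arrays at GD9:00 of series C. They also differed between the arms. At GD8:15 the arsenic arrays were all of series D, and the control arrays of series A, D, C and D. At GD9:12 control array 1 was of series B and every other array of series C. Where a gene had 2 tested probes (92 genes), the pair correlated with a median of 0.0489 and 42 pairs were negative, so each value is that of a probe and may not be that of its gene. Neural progenitor genes (7 of 10 listed had a probe) averaged 8.22 to 9.29 on the arrays, and genes of heart and muscle (12 of 13) 7.80 to 9.14. The *Folr2* probe lay between 6.68 and 7.47 on every array.

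At GD8:15 some markers also separated the arms. Neural progenitor genes averaged 8.22 to 8.43 on arsenic arrays, against 8.66 to 8.83 on control arrays, and heart and muscle genes 8.13 to 8.55 on arsenic arrays, against 8.73 to 9.03 on control arrays. *Xist*, the transcript of the inactive X chromosome, ran from 7.86 to 9.06 on arsenic arrays, against 7.02 to 7.10 on control arrays. The Y-linked *Eif2s3y* ran from 7.11 to 7.30 on arsenic arrays, against 7.66 to 7.79 on control arrays. None of these ranges overlapped. The list averages do not stand for every gene. Of the 7 neural genes, *En1* (-1.58) and *Sox2* (-0.91) had the largest arsenic minus control differences, and the rest lay between -0.13 and 0.054. Of 9 tested heart and muscle genes 7 were lower, with *Myl7* (-1.82) and *Actc1* (-1.57) the largest. *Gata4* (0.18) and *Tnni1* (0.16) were higher. At GD9:00 *Xist* again separated the arms, with 9.77 to 10.35 on arsenic arrays, against 7.10 to 8.71 on control arrays, while *Eif2s3y* (7.01 to 7.18 and 7.06 to 7.89) and both tissue lists overlapped. At GD9:12 the sex-linked pair and both tissue lists overlapped, and the 6 endothelium genes averaged 7.43 to 7.59 on arsenic arrays, against 7.33 to 7.42 on control arrays. Arsenic and embryo sex therefore cannot be told apart at GD8:15, and at GD9:00 not as far as *Xist* shows it, and the part of tissue makeup in the differences below was not tested.

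Arsenate was followed by no called change of any of the 7 synthetases at any stage. The groups overlapped for all 7 at each stage, while 3.84%, 9.63% and 5.01% of all probes had groups that did not overlap at GD8:15, GD9:00 and GD9:12. The median arsenic minus control difference was 0.14 at GD8:15, -0.25 at GD9:00 and 0.02 at GD9:12, beside 0.0005, 0.006 and -0.013 over all tested probes. The members did not move together: 4, 2 and 4 of the 7 were higher with arsenic at the 3 stages in order. Over the whole array 0% of probes were called in each of these comparisons, so a count of 0 members is no result about them. At an unadjusted p under 0.05 limma had 571 probes (7.29%) at GD8:15, 984 (12.6%) at GD9:00 and 100 (1.28%) at GD9:12, and among the members *Tars* at GD9:00 only. Exact two-sided permutation tests of the 21 single differences gave p between 0.0857 and 0.714, where the smallest p possible is 0.0286 with 4 against 4 arrays and 0.0571 with 4 against 3.

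**Figure D1:**
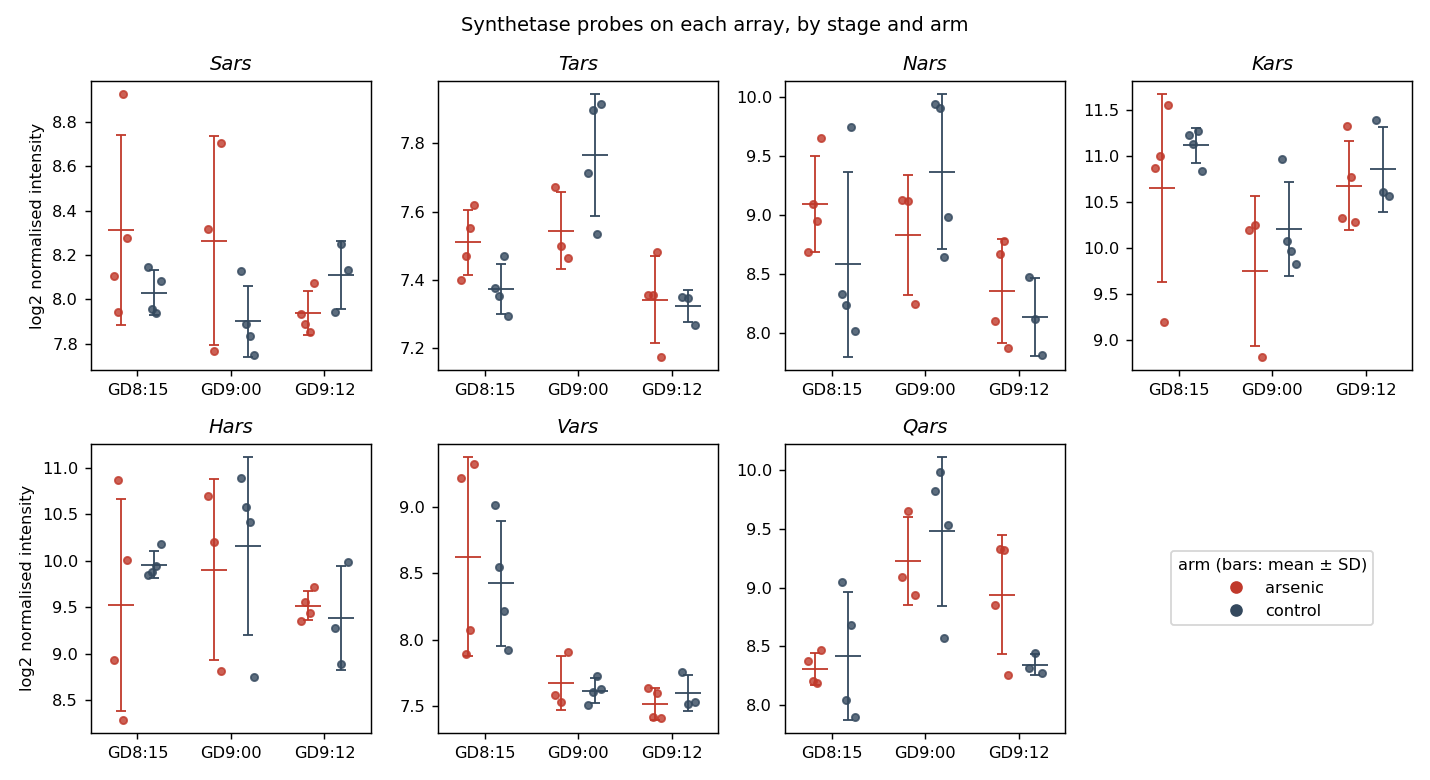
Log2 normalised intensity (y axis, scaled per gene) of the 7 synthetase probes on all 22 arrays, by stage (x axis), arsenic in red and control in dark blue. Points are arrays and bars the mean and SD; the arms overlap in every panel at every stage, and array 3 of the arsenic group holds the highest *Sars* and lowest *Kars* value of both earlier stages.

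Class II enzymes are taken first. *Sars* charges serine tRNA, and its product also serves selenocysteine tRNA. *Sars* had 8.10, 7.94, 8.93 and 8.28 on the arsenic arrays at GD8:15, against 8.15, 7.95, 7.94 and 8.08 on the control arrays, a difference of 0.28 ± 0.19 (SE; limma adjusted p = 0.872). Of the arsenic arrays 2 lay above all controls and the other 2 among them. At GD9:00 *Sars* had 8.32, 7.77 and 8.71 on arsenic arrays, against 8.13, 7.89, 7.83 and 7.75 on control arrays, a difference of 0.36 ± 0.20 (limma adjusted p = 0.474). Again 2 of the arsenic arrays lay above all controls. At GD9:12 it had 7.93, 7.89, 7.85 and 8.08 on arsenic arrays, against 7.94, 8.25 and 8.13 on control arrays, a difference of -0.17 ± 0.20. Without the 2 arsenic arrays that stood apart, the differences were 0.081 at GD8:15 and 0.15 at GD9:00, again without a call.

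*Tars*, whose threonyl enzyme is the member with the ATF4 motif printed above, was dim and the least variable within groups, with a median SD of 0.10. Its deposited intensities ran from 122 to 294, and its normalised values from 7.17 to 7.92 lay close to the limit of 7.20 below which a probe's mean was not tested. At GD8:15 *Tars* had 7.40, 7.47, 7.55 and 7.62 on arsenic arrays, against 7.38, 7.35, 7.47 and 7.30 on control arrays, a difference of 0.14 ± 0.092 (95% interval -0.057 to 0.33). At GD9:00 it had 7.67, 7.50 and 7.46 on arsenic arrays, against 7.71, 7.90, 7.53 and 7.92 on control arrays, a difference of -0.22 ± 0.099. The arsenic arrays were lower on average here, with 2 of 3 below all controls, but the limma p of 0.0397 became 0.373 after adjustment. At GD9:12 the arsenic arrays had 7.36, 7.36, 7.48 and 7.17, against 7.35, 7.35 and 7.27 on the control arrays, a difference of 0.02 ± 0.099. The arsenic difference of *Tars* at GD9:00 minus that at GD8:15 was -0.36 ± 0.14 (limma adjusted p = 0.522), and its F test over the 3 stages, the lowest p of the 7 members at 0.0504, had an adjusted p of 0.777. Limma called 0 of the 7830 probes in this F test, and 505 (6.45%) had an unadjusted p under 0.05.

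*Nars* charges asparagine tRNA, using the amino acid that the ATF4 target *Asns* makes. At GD8:15 it had 8.68, 9.10, 8.95 and 9.65 on arsenic arrays, against 8.33, 8.24, 9.74 and 8.02 on control arrays, a difference of 0.51 ± 0.37 (limma adjusted p = 0.902). All 4 arsenic arrays lay above 3 of the controls, and the remaining control, array 3, lay above all of them. That control was the only array of its stage in series C. With the number series as a block the *Nars* difference at GD8:15 was 0.96, and with only series D arrays at that stage 0.95, both without a call. At GD9:00 *Nars* had 9.12, 9.12 and 8.24 on arsenic arrays, against 9.94, 9.91, 8.65 and 8.98 on control arrays, a difference of -0.54 ± 0.40, or -0.25 without both arsenic arrays that stood apart. At GD9:12 it had 8.10, 8.67, 8.78 and 7.88 on arsenic arrays, against 8.48, 8.12 and 7.81 on control arrays, a difference of 0.22 ± 0.40. The sign thus differed between neighbouring stages, with groups that overlapped at each.

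*Kars* encodes both the cytosolic and the mitochondrial lysyl enzyme. At GD8:15 *Kars* had 10.87, 10.999, 9.19 and 11.55 on arsenic arrays, against 11.22, 11.13, 11.27 and 10.84 on control arrays, a difference of -0.46 ± 0.42. At GD9:00 it had 10.20, 10.25 and 8.81 on arsenic arrays, against 10.96, 10.07, 9.97 and 9.83 on control arrays, a difference of -0.45 ± 0.46. Array 3 of the arsenic group lay below all other arrays of its stage both times, and without both arrays the differences were 0.021 and 0.017. At GD9:12 the values were 10.33, 11.32, 10.77 and 10.29 on arsenic arrays, against 11.39, 10.61 and 10.56 on control arrays, a difference of -0.18 ± 0.46.

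*Hars* charges histidine tRNA and shares an ancestral domain with the kinase GCN2. It had the widest spread of the 7, with a median SD within groups of 0.76 that nearly equalled the range of its group means, 0.78. At GD8:15 *Hars* had 8.94, 10.87, 8.29 and 10.00 on arsenic arrays, against 9.84, 9.88, 9.94 and 10.17 on control arrays, a difference of -0.43 ± 0.51. The arsenic arrays lay on both sides of the controls, and with 1 array left out the difference ranged from -0.89 (without arsenic array 2) to -0.024 (without arsenic array 3). At GD9:00 it had 10.69, 10.20 and 8.81 on arsenic arrays, against 10.89, 10.58, 10.42 and 8.75 on control arrays, a difference of -0.26 ± 0.55, which was 0.30 without both arsenic arrays that stood apart. At GD9:12 it had 9.35, 9.56, 9.44 and 9.72 on arsenic arrays, against 9.27, 8.89 and 9.99 on control arrays, a difference of 0.13 ± 0.55.

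Of the class I enzymes, *Vars* charges valine tRNA. At GD8:15 it had 9.22, 7.89, 8.07 and 9.32 on arsenic arrays, against 9.01, 8.54, 8.22 and 7.92 on control arrays, a difference of 0.20 ± 0.27. The arsenic arrays fell into 2 above and 1 below all controls. At GD9:00 it had 7.58, 7.53 and 7.91 on arsenic arrays, against 7.51, 7.61, 7.73 and 7.63 on control arrays, a difference of 0.057 ± 0.29, or -0.063 without both arsenic arrays that stood apart. At GD9:12 it had 7.64, 7.42, 7.60 and 7.41 on arsenic arrays, against 7.76, 7.52 and 7.53 on control arrays, a difference of -0.084 ± 0.29.

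*Qars* charges glutamine tRNA. At GD8:15 it had 8.37, 8.20, 8.19 and 8.47 on arsenic arrays, against 9.05, 8.04, 8.68 and 7.90 on control arrays, a difference of -0.11 ± 0.30. At GD9:00 it had 9.09, 9.65 and 8.94 on arsenic arrays, against 9.83, 9.99, 8.57 and 9.53 on control arrays, a difference of -0.25 ± 0.33. At GD9:12 it had 8.85, 9.33, 9.32 and 8.26 on arsenic arrays, against 8.32, 8.45 and 8.27 on control arrays. This difference of 0.60 ± 0.33 (95% interval -0.087 to 1.28) was the largest in size of the 21, with 3 of 4 arsenic arrays above all controls, but the limma adjusted p was 1.00 and the exact p 0.229.

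Averaged over the stages with equal weight, the arsenic difference was 0.16 ± 0.11 for *Sars*, -0.022 ± 0.056 for *Tars* and 0.065 ± 0.23 for *Nars*. It was -0.37 ± 0.26 for *Kars*, -0.19 ± 0.31 for *Hars*, 0.058 ± 0.16 for *Vars* and 0.077 ± 0.18 for *Qars*, and the lowest limma adjusted p was 0.877. Without arsenic array 3 at GD9:00 the *Hars* average was -0.0046, and without both arsenic arrays that stood apart 0.14. The background was again 0% called, with 448 probes (5.72%) at an unadjusted p under 0.05 and none of the 7 members among them. The intervals differ widely in what they leave room for. For *Tars* the 95% interval of the average ran from -0.14 to 0.096, and for *Hars* from -0.84 to 0.46.

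**Figure D2:**
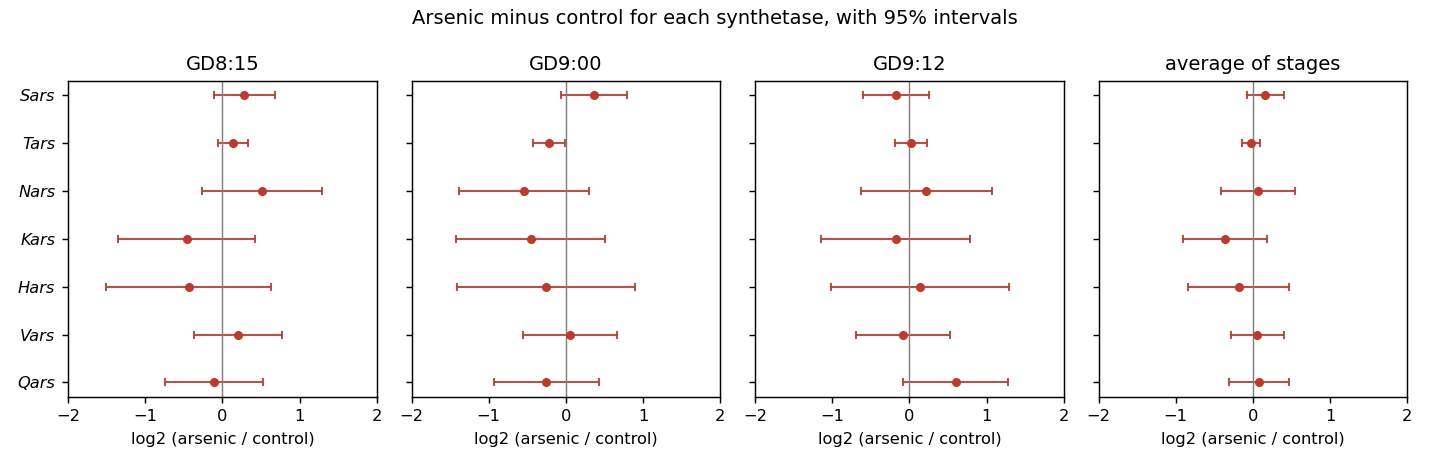
Arsenic minus control difference (x axis, log2) of each synthetase (rows) at GD8:15, GD9:00, GD9:12 and averaged over stages, from the limma fit of all 22 arrays. Points are estimates and bars 95% intervals; *Tars* has the narrowest and *Hars* the widest interval at each stage, and only the *Tars* interval at GD9:00 (-0.43 to -0.012) lies on one side of 0 before adjustment.

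The ATF4 pathway list, which held no synthetase, had mostly positive arsenic differences at the earlier stages, although limma called 0 of its genes too. Of 31 genes 26 had a probe and 22 were tested. At GD8:15, 21 of the 22 were higher with a median difference of 0.41, and at GD9:00 21 of 22 with a median of 0.38. At GD9:12, 11 of 22 were higher with a median of -0.004. At an unadjusted p under 0.05 there were 10, 7 and 0 of the 22 at these stages, beside 7.29%, 12.6% and 1.28% of all probes. On single arrays the mean deviation of the 22 probes from their overall means was 0.33 to 0.57 with arsenic at GD8:15, against -0.32 to -0.03 in controls. The deviation at GD9:00 was 0.52, -0.12 and 0.42 with arsenic, against -0.23 to -0.02 in controls, so that 1 of 3 arsenic arrays lay among the controls, and the median difference ranged from 0.17 to 0.55 with 1 array left out. At GD9:12 it was -0.24 to -0.18 with arsenic, against -0.23 to -0.19 in controls. The list was chosen with earlier results of these data known, so its counts describe and do not test a direction.

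The genes of that list named next had its lowest limma p at GD8:15 and in the average, so they do not show its size. Over the tested genes the differences at GD8:15 ran from -0.039 (*Slc38a2*) to 1.55 (*Mthfd2*), with a median of 0.41. *Chac1*, which degrades glutathione, was 1.30 ± 0.22 higher with arsenic at GD8:15 (limma adjusted p = 0.0514). *Stc2*, a secreted glycoprotein, was 0.98 ± 0.17 higher (limma adjusted p = 0.0514). *Slc1a4*, a transporter of neutral amino acids, was 1.09 ± 0.21 higher and the transcription factor *Atf5* 0.74 ± 0.18 higher (limma adjusted p = 0.0733 and 0.269). In the average over stages *Chac1* was 0.66 ± 0.13 and *Slc1a4* 0.51 ± 0.13 higher. Under 3 alternatives (placeholders kept, bands of dim probes masked, and both arsenic arrays that stood apart left out) limma called 2 genes of the list at GD8:15, and under a trended and robust variance 3. With array weights it called 6 genes of the list at GD9:00 and 5 in the average over stages, where calls over all probes also rose. The 7 synthetases had no such call under these alternatives. Limma called only a small share of all probes under each, with counts given further below, so this is no result about the synthetases.

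Of the 13 cytosolic synthetases that are not among the 7, *Cars* (cysteinyl), *Rars* (arginyl) and *Wars* (tryptophanyl) had a probe. Their arsenic differences at GD8:15 were -0.026 ± 0.11, 0.048 ± 0.22 and 0.038 ± 0.14. At GD9:00 *Cars* differed by 0.25 ± 0.12 (limma adjusted p = 0.382), *Rars* by -0.18 ± 0.23 and *Wars* by -0.078 ± 0.15. At GD9:12 the differences were 0.069 ± 0.12 for *Cars*, -0.028 ± 0.23 for *Rars* and 0.17 ± 0.15 for *Wars*. Over the stages they averaged 0.099 ± 0.066, -0.055 ± 0.13 and 0.043 ± 0.084. None of the 3 was called.

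The mitochondrial synthetases, which charge tRNA for the organelle's own ribosomes, gave 0 calls for arsenic. Of 20 genes 7 were tested, and 4 were higher with arsenic at GD8:15. *Qrsl1*, a subunit of the enzyme that makes glutaminyl-tRNA in mitochondria, was 0.63 ± 0.22 higher at GD8:15 and 0.47 ± 0.13 higher on average (limma adjusted p = 0.730). *Wars2* differed by 0.16 ± 0.098, *Hars2* by -0.14 ± 0.18 and *Yars2* by -0.26 ± 0.24 at GD8:15, and *Yars2* by -0.20 ± 0.15 on average.

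Genes that act beside the synthetases were counted the same way. Of the scaffolds of the multisynthetase complex 2 of 3 were tested, *Aimp1* at 0.23 ± 0.46 and *Eef1e1* at -0.20 ± 0.26 for arsenic at GD8:15, and at 0.50 ± 0.28 and -0.30 ± 0.16 on average. The elongation factor eEF1, which takes charged tRNA to the ribosome, had all 5 genes tested and 4 higher at GD8:15, where *Eef1b2* differed by 0.50 ± 0.50, *Eef1g* by 0.27 ± 0.39, *Eef1a1* by 0.25 ± 0.39 and *Eef1d* by -0.47 ± 0.19. On average *Eef1d* differed by -0.29 ± 0.12 and *Eef1a2* by 0.16 ± 0.16. Of 13 tested genes of tRNA processing and transport 8 were higher at GD8:15. The tRNA exporter *Xpot* differed by 0.89 ± 0.40 (limma adjusted p = 0.641), the tRNA splicing endonuclease subunit *Tsen54* by 0.42 ± 0.33, and the ribonuclease P subunits *Pop1* and *Pop4* by 0.21 ± 0.15 and -0.56 ± 0.36. On average *Tsen54* differed by 0.44 ± 0.20 and *Dtd1*, which clears D-amino acids from tRNA, by -0.38 ± 0.17. Of the eIF2 kinases, eIF2 and eIF2B genes 5 were tested and 2 were higher at GD8:15. *Eif2ak4* (GCN2) differed by 0.12 ± 0.14, *Eif2s2* by 0.42 ± 0.49, *Eif2ak1* by -0.20 ± 0.13 and *Eif2ak3* by -0.33 ± 0.33, and on average *Eif2b4* by -0.20 ± 0.24 and *Eif2ak4* by 0.048 ± 0.083. None of these genes was called in these comparisons.

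**Figure D3:**
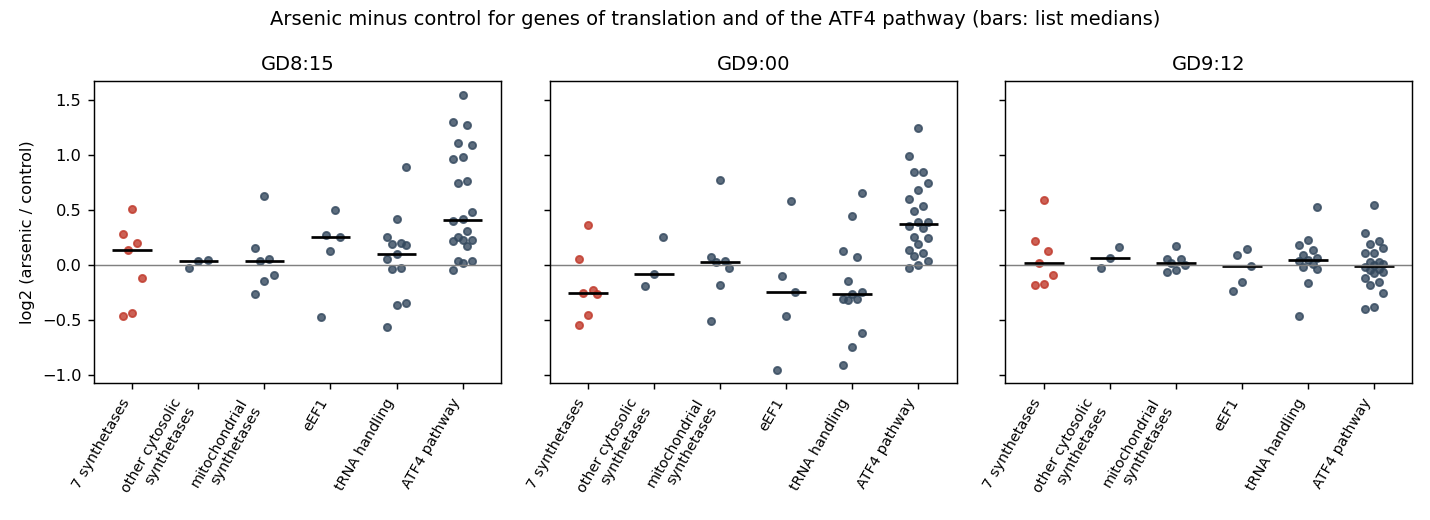
Arsenic minus control difference (y axis, log2) of the 7 synthetases (red) and of the other gene lists (dark blue) at each stage. Points are tested probes and bars list medians; the synthetases lie on both sides of 0 at all 3 stages, while 21 of 22 ATF4 pathway genes lie above 0 at GD8:15 and at GD9:00.

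Calls between stages were more frequent than between arms, over all probes and among the members. In the arsenic groups *Vars* was lower at GD9:12 than at GD8:15, and in the controls *Tars* and *Qars* were higher at GD9:00 than at GD8:15 and lower again at GD9:12. These 5 differences were called and no other of the 7 members between stages. For GD9:00 minus GD8:15, GD9:12 minus GD9:00 and GD9:12 minus GD8:15 in order, limma called 0, 0 and 1 of the 7 members in the arsenic groups, beside 4.21%, 3.88% and 13.8% of all probes. In the controls it called 2, 2 and 0 of the 7, beside 15%, 11.2% and 7.71%. At an unadjusted p under 0.05 limma had 2, 0 and 2 of the 7 in the arsenic groups, beside 17.9%, 16.6% and 29.7% of all probes, and 5, 3 and 1 of the 7 in the controls, beside 31.4%, 26.4% and 21.6%. Groups that did not overlap made up 13.7%, 18.1% and 20.4% of all probes in the arsenic groups and 22.2%, 30.1% and 31.2% in the controls, again in that order.

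Tissue and sex markers separated several of the same stage groups. The list averages again do not stand for every gene. Of the 7 neural genes, 4 were higher and 3 lower at GD9:12 than at GD8:15 with arsenic. In the controls, 3 were higher and 4 lower at GD9:12 than at GD9:00. In the arsenic groups at GD9:12, against GD8:15, neural progenitor genes averaged 8.88 to 9.26 against 8.22 to 8.43, heart and muscle genes 7.80 to 8.03 against 8.13 to 8.55, *Xist* 6.93 to 7.15 against 7.86 to 9.06, and *Eif2s3y* 7.51 to 8.14 against 7.11 to 7.30. In the controls at GD9:12, against GD9:00, neural progenitor genes averaged 9.20 to 9.29 against 8.53 to 9.11, heart and muscle genes 7.80 to 8.01 against 8.15 to 8.89, and blood genes 9.18 to 9.41 against 7.41 to 8.42. In the controls at GD9:00, against GD8:15, the neural, heart and muscle, and blood lists overlapped, and *Xist* did not (7.103 to 8.71 against 7.019 to 7.095). In the arsenic groups at GD9:00, against GD8:15, neural progenitor genes averaged 8.58 to 8.63 against 8.22 to 8.43. Heart and muscle genes there averaged 8.60 to 9.14 against 8.13 to 8.55, and *Xist* had 9.77 to 10.35 against 7.86 to 9.06. In the arsenic groups at GD9:12, against GD9:00, neural progenitor genes averaged 8.88 to 9.26 against 8.58 to 8.63. Heart and muscle genes in that comparison averaged 7.80 to 8.03 against 8.60 to 9.14. Blood genes averaged 8.82 to 9.39 against 7.95 to 8.38, and *Xist* had 6.93 to 7.15 against 9.77 to 10.35. Endothelium genes with arsenic averaged 7.43 to 7.59 at GD9:12 against 7.64 to 7.89 at GD8:15. In the controls they averaged 7.33 to 7.42 at GD9:12 against 7.57 to 7.76 at GD9:00. In the controls at GD9:12, against GD8:15, neural progenitor genes averaged 9.20 to 9.29 against 8.66 to 8.83. Heart and muscle genes in that comparison averaged 7.80 to 8.01 against 8.73 to 9.03, and blood genes 9.18 to 9.41 against 8.29 to 8.76. The part of these markers in the stage differences was not tested.

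*Tars* had 7.71, 7.90, 7.53 and 7.92 on the control arrays at GD9:00, against 7.38, 7.35, 7.47 and 7.30 at GD8:15, a difference of 0.39 ± 0.092 (1.31-fold, limma adjusted p = 0.00984). All 4 arrays at GD9:00 lay above all 4 at GD8:15. At GD9:12 the control values of 7.35, 7.35 and 7.27 lay below all of GD9:00, a difference of -0.44 ± 0.099 (limma adjusted p = 0.00826). Both calls held whichever of the 22 arrays was left out, with differences of 0.34 to 0.47 and -0.52 to -0.39. In the arsenic groups *Tars* differed by 0.035 ± 0.099 for GD9:00 minus GD8:15 and by -0.20 ± 0.099 for GD9:12 minus GD9:00, without a call.

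*Qars* had 9.83, 9.99, 8.57 and 9.53 on the control arrays at GD9:00, against 9.05, 8.04, 8.68 and 7.90 at GD8:15, a difference of 1.06 ± 0.30 (2.09-fold, limma adjusted p = 0.0243). The groups overlapped through array 3 at GD9:00. At GD9:12 the control values of 8.32, 8.45 and 8.27 lay below all of GD9:00, a difference of -1.14 ± 0.33 (limma adjusted p = 0.0300). The first call was lost without array 2 or 4 of the controls at GD8:15 or array 1, 2 or 4 at GD9:00, with a range of 0.89 to 1.36 over all arrays left out. The second was lost without array 1, 2 or 4 at GD9:00 or any of the 3 at GD9:12, with a range of -1.44 to -0.96. In the arsenic groups *Qars* was 0.92 ± 0.33 higher at GD9:00 than at GD8:15, with all 3 arrays above all 4 (limma adjusted p = 0.126), and -0.29 ± 0.33 for GD9:12 minus GD9:00.

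*Vars* had 7.64, 7.42, 7.60 and 7.41 on the arsenic arrays at GD9:12, against 9.22, 7.89, 8.07 and 9.32 at GD8:15, a difference of -1.11 ± 0.27 (limma adjusted p = 0.0104). The groups did not overlap, and the call held whichever array was left out, with differences of -1.36 to -0.88. For GD9:00 minus GD8:15 it was -0.95 ± 0.29 in the arsenic groups (limma adjusted p = 0.0746) and -0.81 ± 0.27 in the controls (limma adjusted p = 0.0507). For GD9:12 minus GD8:15 in the controls it was -0.82 ± 0.29 (limma adjusted p = 0.0954), and the control groups did not overlap in either comparison. Of these 4 differences of *Vars*, all negative, 1 passed the threshold. Without the 2 arsenic arrays that stood apart, the GD9:00 minus GD8:15 difference was -1.30 in the arsenic groups and -0.83 in the controls, and both passed it (limma adjusted p = 0.0458 and 0.0347).

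Other members differed between stages without a call. *Nars* was -1.23 ± 0.40 for GD9:12 minus GD9:00 in the controls, with groups that did not overlap (limma adjusted p = 0.0555). *Kars* was -0.90 ± 0.46 for GD9:00 minus GD8:15 in the arsenic groups and -0.91 ± 0.42 in the controls (limma adjusted p = 0.316 and 0.152). For GD9:12 minus GD9:00 in the arsenic groups *Kars* was 0.92 ± 0.46, with groups that did not overlap (limma adjusted p = 0.329). The control *Nars* difference passed the threshold under 5 alternatives (array weights, a trended and robust variance, both settings for the number series, and without both arsenic arrays that stood apart), and without control array 3 at GD8:15 or array 3 of either arm at GD9:00, at -1.47 to -0.95. The control *Kars* difference passed it under 3 (the authors' scaling, array weights, and without both arsenic arrays), at -1.09 to -0.93. *Hars* differed by at most 0.78 and *Sars* by at most 0.38 in size between any 2 stages of an arm.

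The stage calls depend on scaling and on the number series. The authors scaled each stage to its own mean intensity, and under their scaling the median of all tested probes was -0.49 for GD9:00 minus GD8:15 and 0.79 for GD9:12 minus GD9:00 in the controls. *Tars* then reversed to -0.11 and 0.19, which is 0.38 and -0.59 relative to those medians, and *Qars* was 0.67 and -0.36, which is 1.17 and -1.15 relative to them; none of these values was called. The *Vars* call stayed (-0.98, limma adjusted p = 0.0112), and its GD9:00 minus GD8:15 difference passed the threshold in the arsenic groups (-1.11, limma adjusted p = 0.0477) and in the controls (-1.24, limma adjusted p = 0.00355). *Qars* at GD9:12 minus GD8:15 with arsenic then passed it too, at 1.03 beside an all-probe median of 0.055 (limma adjusted p = 0.0194). *Kars* for GD9:12 minus GD9:00 did so at 2.02 with arsenic and 1.80 in the controls, and *Sars* at 1.01 in the controls, beside all-probe medians of 0.33 with arsenic and 0.79 in the controls (limma adjusted p = 0.000964, 0.00130 and 0.00228). With array weights the second *Qars* difference was -0.72 and lost its call (limma adjusted p = 0.0780).

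Stage and number series cannot be told apart for most arrays. Only 1 of the 8 arrays at GD8:15, control array 3, is of series C like all arrays at GD9:00, so with the series as a block every comparison with GD8:15 rests on that array. Under that block the *Tars* difference for GD9:12 minus GD9:00 stayed called (-0.46, limma adjusted p = 0.0370) and the second *Qars* difference did not (-1.12, limma adjusted p = 0.0662). The 3 differences against GD8:15 were 0.30 for *Tars*, 0.80 for *Qars* and -1.09 for *Vars* (limma adjusted p = 0.673, 0.718 and 0.542). With only series D arrays kept at GD8:15 and only series C arrays at both later stages, the series is alike within a stage but still differs between GD8:15 and the later stages. There *Tars* had 0.43 and -0.45, *Qars* 1.49 and -1.11 and *Vars* -1.09 (limma adjusted p = 0.0403, 0.0381, 0.0190, 0.0667 and 0.0134). Of these, -0.45 and -1.11 are from 1 series, and the others compare series C with series D.

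*Wars*, a cytosolic synthetase outside the 7, had its highest group mean at GD9:00 in both arms. In the arsenic groups it averaged 7.21 ± 0.084 at GD8:15 (SD, n = 4), 8.63 ± 0.19 at GD9:00 (n = 3) and 7.71 ± 0.25 at GD9:12 (n = 4), and in the controls 7.17 ± 0.11 (n = 4), 8.71 ± 0.30 (n = 4) and 7.54 ± 0.094 (n = 3). For GD9:00 minus GD8:15 the difference was 1.43 ± 0.15 in the arsenic groups and 1.54 ± 0.14 in the controls (limma adjusted p = 1.69e-05 and 1.32e-06). For GD9:12 minus GD9:00 it was -0.92 ± 0.15 and -1.17 ± 0.15 (limma adjusted p = 0.00246 and 0.000145), and for GD9:12 minus GD8:15 0.51 ± 0.14 with arsenic, which was called, and 0.38 ± 0.15 in the controls, which was not (limma adjusted p = 0.0204 and 0.144). Limma called 0 of the 7830 probes, *Wars* among those tested, in the F test of the arsenic difference over the 3 stages. The GD8:15 means lay at the limit of 7.20 used to leave out dim probes, so the size of a difference from that stage is uncertain. The deposited intensities of *Wars* were 319 to 343 with arsenic at GD9:00, against 140 to 243 with arsenic at GD8:15, and 238 to 414 in the controls at GD9:00, against 102 to 170 in the controls at GD8:15. Under the authors' scaling the GD9:00 minus GD8:15 difference was 0.88 in the arsenic groups and 1.11 in the controls, and both stayed called. The GD9:12 minus GD9:00 difference was then -0.35 with arsenic, without a call, and -0.55 in the controls (limma adjusted p = 0.340 and 0.0401). For GD9:12 minus GD8:15 the same scaling gave 0.53 with arsenic and 0.56 in the controls (limma adjusted p = 0.0995 and 0.103). With array weights that control difference was called (0.34, limma adjusted p = 0.0142). With 1 array left out the limma adjusted p of the arsenic one reached 0.0844. The arms thus did not differ steadily in this call. With the number series as a block the GD9:00 minus GD8:15 difference was 1.26 with arsenic and 1.45 in the controls (limma adjusted p = 0.25 and 0.00932).

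*Cars* and *Rars* were not called between stages. For GD9:00 minus GD8:15 *Rars* differed by 0.19 ± 0.23 in the arsenic groups and 0.42 ± 0.22 in the controls, and *Cars* by 0.38 ± 0.12 and 0.098 ± 0.11. For GD9:12 minus GD9:00 *Rars* differed by -0.57 ± 0.23 and -0.73 ± 0.23 (limma adjusted p = 0.209 and 0.0504), and *Cars* by -0.34 ± 0.12 and -0.15 ± 0.12. Both genes, like *Wars*, had their highest group means at GD9:00 in each arm.

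**Figure D4:**
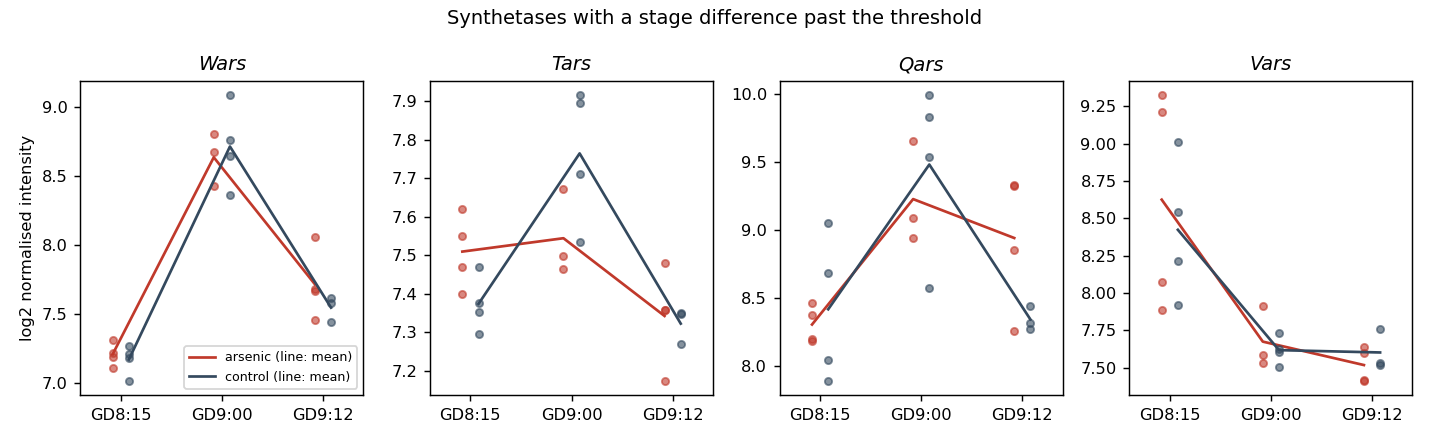
Log2 normalised intensity (y axis, scaled per gene) by stage (x axis) of the synthetases with a called stage difference, *Wars*, *Tars*, *Qars* and *Vars*, arsenic in red and control in dark blue. Points are arrays and lines join group means. *Wars*, *Tars* and *Qars* have their highest group means at GD9:00 in both arms, but *Tars* and *Qars* differences were called in the controls only. *Vars* is highest at GD8:15 in both arms.

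Across the 22 arrays the 7 probes shared little of their variation. Over the 21 pairs the median Pearson correlation was 0.11 and 11 were positive. After each group's mean was taken out the median was 0.041 and 12 were positive. The highest correlations joined *Tars* with *Nars* (0.77), *Tars* with *Qars* (0.66) and *Nars* with *Qars* (0.56), which within groups were 0.63, 0.62 and 0.67. The lowest joined *Sars* with *Kars* (-0.47, within groups -0.63). Each of the 2 arsenic arrays that stood apart had the highest *Sars* value and the lowest *Kars* value of its stage. *Kars* and *Qars*, whose proteins share the multisynthetase complex, had -0.16. The arrays are shared by all pairs and include the stage differences above, so these values describe the arrays and carry no test.

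**Figure D5:**
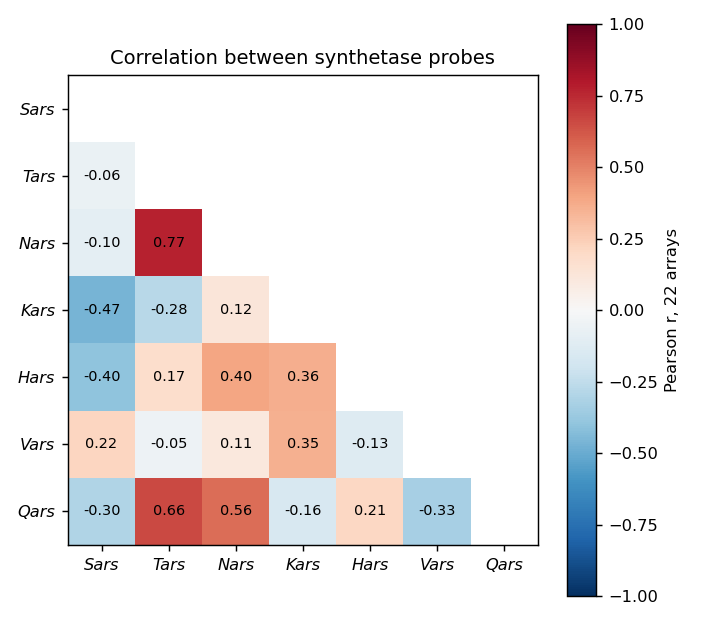
Pearson correlation (colour, and number in each cell) between the log2 normalised intensities of each pair of the 7 synthetase probes over 22 arrays, with genes on both axes. *Tars*, *Nars* and *Qars* form the cells of 0.56 to 0.77, and *Sars* with *Kars* has the lowest at -0.47.

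The mean z-score of the 7 probes at GD8:15 was 0.24 ± 0.47 with arsenic and 0.044 ± 0.37 in controls (SD). The score at GD9:00 was 0.061 ± 0.38 with arsenic and 0.35 ± 0.55 in controls, and at GD9:12 it was -0.35 ± 0.32 with arsenic and -0.44 ± 0.12 in controls. Of 7156 tested probes with a single symbol outside the 7, the closest to this score by Pearson correlation over the 22 arrays were *Hmgn1*, a nucleosome-binding protein (0.88), *Usp39*, a splicing factor (0.87), *Polr2c*, an RNA polymerase II subunit (0.86), *Copg1*, a coat protein of transport vesicles (0.86), *Osgep*, a tRNA-modifying enzyme (0.86), and *Psmb1*, a proteasome subunit (0.85). The lowest correlations were those of the Y-linked histone demethylase *Kdm5d* (-0.86), the ubiquitin ligase *Rnf125* (-0.84) and *Schip1* (-0.78). These are the extremes of 7156 values and carry no test.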

How the data were processed

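The deposited values were linear intensities of 10500 probes, whole numbers scaled by the authors within each array so that arrays of a stage share a mean, as the values show. The array and label come from the submitters' design text and label protocol; scanner software and background correction are not given in the sources used here. Below the lowest real value of 56 stood 838 values of 1 or 2, taken as placeholders and set to missing. Array medians (123 to 291) differed by up to 1.24 on the log2 scale, so log2 intensities were quantile normalised (limma 3.58.1, R 4.3.3). Probes needed values on 2 arrays of each group (59 failed) and a mean above the lowest 25%, a log2 limit of 7.20. One model (lmFit, eBayes) of 6 group means gave all contrasts, adjusted by Benjamini-Hochberg at 0.05, and was tested on simulated data. Exact permutation tests used scipy 1.17.1, and figures matplotlib 3.10.9 under Python 3.11.15. The number of arrays limits the precision.

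The annotation gave 9378 probes 1 symbol, 8 several and 1114 none. Members and gene lists were chosen with earlier results of these data known. Named are all 7 members and each cytosolic synthetase with a probe, up to 4 genes per other list of lowest p at GD8:15 and up to 2 in the average, and the 6 highest and 3 lowest probes by likeness. Alternatives were the authors' scaling, no filter, placeholders kept, array weights, a trended and robust variance, dim bands masked (running median of 51 neighbouring probes below -0.5), the number series as a block, only series D at GD8:15 and series C later, group medians, each array left out, and, chosen after seeing the data, both arsenic arrays that stood apart left out.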

Additional observations from a re-analysis of the deposited data

How the results depend on the processing

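None of the 28 arsenic results of the 7 genes was called under any alternative: of 868 values with a test the lowest limma adjusted p was 0.109, and 41 of all 889 values had the opposite sign. No paired analysis was possible because the labels give no replicate numbers. Only 1 intensity per probe was used here, so signal over background was not measured, and the number of arrays limits all genes; the cause of a change with a setting was not tested except where the setting has fewer arrays.

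Arsenic differences turned sign as follows. Without both arsenic arrays that stood apart, *Kars* was 0.021 at GD8:15 and 0.017 at GD9:00, *Hars* 0.30 at GD9:00 and 0.14 on average, and *Vars* -0.063 at GD9:00. With array weights, *Hars* was 0.058, *Vars* -0.033 and *Qars* 0.052 at GD8:15; *Nars* 0.14, *Kars* 0.12, *Hars* 0.47, *Vars* -0.0877 and *Qars* 0.13 at GD9:00; *Kars* 0.013 and *Hars* -0.11 at GD9:12; and *Tars* 0.060, *Hars* 0.14 and *Vars* -0.0448 on average. Under the authors' scaling, where all probes had a median of 0.21, 0.43, 0.02 and on average 0.22, *Qars* was 0.0077 at GD8:15, and *Tars* 0.23 at GD9:00 and 0.21 on average. With the number series as a block *Qars* was 0.34 at GD8:15 and *Kars* 0.090 at GD9:12, and with only series D at GD8:15 and series C later 0.33 and 0.092. By group medians *Kars* was 0.17 and *Vars* -0.033 at GD9:00.

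Leaving out 1 array gave ranges that crossed 0 for *Kars* at GD8:15 (-0.77 to 0.022), GD9:00 (-0.70 to 0.016) and GD9:12 (-0.39 to 0.092), *Hars* at GD9:00 (-0.73 to 0.29) and GD9:12 (-0.11 to 0.43), *Vars* at GD8:15 (-0.031 to 0.45), GD9:00 (-0.062 to 0.13) and on average (-0.020 to 0.14), *Qars* at GD8:15 (-0.29 to 0.10) and on average (-0.024 to 0.15), *Tars* at GD9:12 (-0.026 to 0.076) and *Nars* on average (-0.016 to 0.19). Between stages it did so for *Tars* at GD9:00 minus GD8:15 with arsenic (-0.030 to 0.077), and in the controls for *Vars* at GD9:12 minus GD9:00 (-0.092 to 0.026), *Qars* at GD9:12 minus GD8:15 (-0.25 to 0.14) and *Hars* at GD9:00 minus GD8:15 (-0.041 to 0.67). With arsenic it also did so at GD9:00 minus GD8:15 for *Sars* (-0.27 to 0.20), *Nars* (-0.42 to 0.028) and *Hars* (-0.034 to 0.93), at GD9:12 minus GD9:00 for *Hars* (-0.94 to 0.011) and at GD9:12 minus GD8:15 for *Kars* (-0.47 to 0.33) and *Hars* (-0.42 to 0.44).

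Stage differences turned sign under the authors' scaling for *Tars* with arsenic at GD9:00 minus GD8:15 (-0.23) and GD9:12 minus GD9:00 (0.031) and in the controls at GD9:00 minus GD8:15 (-0.11), GD9:12 minus GD9:00 (0.19) and GD9:12 minus GD8:15 (0.077). They also did for *Vars* at GD9:12 minus GD9:00 with arsenic (0.13) and in the controls (0.69, limma adjusted p = 0.0395), and for *Qars* at GD9:12 minus GD9:00 with arsenic (0.56) and GD9:12 minus GD8:15 in the controls (0.31). *Sars* (0.20), *Nars* (0.21) and *Hars* (0.60) did at GD9:12 minus GD9:00 with arsenic. *Hars* did at GD9:00 minus GD8:15 (-0.047) and GD9:12 minus GD8:15 (0.55) with arsenic and at GD9:00 minus GD8:15 (-0.0032), GD9:12 minus GD9:00 (0.14) and GD9:12 minus GD8:15 (0.14) in the controls, and *Kars* at GD9:12 minus GD8:15 in the controls (0.71). With the number series as a block *Tars* was -0.11 at GD9:00 minus GD8:15 and *Qars* -0.081 at GD9:12 minus GD8:15 with arsenic. Under the same block *Sars* was 0.031 at GD9:00 minus GD8:15, and *Kars* -0.26 and *Hars* 0.082 at GD9:12 minus GD8:15, with arsenic, and *Nars* -0.38 at GD9:00 minus GD8:15 in the controls. With array weights *Sars* was 0.13 and *Nars* 0.058 at GD9:00 minus GD8:15 and *Kars* -0.14 at GD9:12 minus GD8:15 with arsenic, and without both arsenic arrays that stood apart the last was -0.47. *Qars* at GD9:12 minus GD8:15 in the controls was 0.093 with array weights and 0.38 between series D at GD8:15 and series C at GD9:12. Over all member differences, 2043 of 2191 values kept direction and side of the threshold, 37 passed it anew, 19 lost it and 92 turned sign.

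Counts of probes called moved as well. At GD8:15 the count of 0 became 3 with placeholders kept, 4 with array weights, 5 with a trended and robust variance, 3 with bands masked and 4 without both arsenic arrays. At GD9:00 it became 1 under the authors' scaling, 201 with array weights, 2 with the series block, 1 with the chosen series and 1 without both arrays; at GD9:12 it became 10 with array weights. On average it became 2, 38 and 1 under the authors' scaling, array weights and without both arrays, and the F test gave 1 with array weights. With arsenic, GD9:00 minus GD8:15 (330) became 151 under the authors' scaling, 1309 with array weights and 6 with the series block; GD9:12 minus GD9:00 (304) became 1816 and 1955 under the first 2; and GD9:12 minus GD8:15 (1082) became 7 with the block. In the controls, under the authors' scaling, array weights, the series block and the chosen series (D at GD8:15, C later, so that only GD9:12 minus GD9:00 lies within 1 series), GD9:00 minus GD8:15 (1173) became 2744, 2086, 35 and 632, GD9:12 minus GD9:00 (880) became 5612, 1921, 519 and 510, and GD9:12 minus GD8:15 (604) became 1421, 2242, 47 and 192. The authors' scaling also moved the split of higher and lower calls, for GD9:12 minus GD9:00 in the controls to 5509 and 103, beside 299 and 581, and for GD9:00 minus GD8:15 to 168 and 2576, beside 638 and 535.

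Leaving out 1 array gave 0 to 5, 0 to 35 and 0 to 1 calls for arsenic at the 3 stages, 0 to 5 on average and 0 to 4 in the F test. With arsenic it gave 145 to 406 for GD9:00 minus GD8:15, 130 to 361 for GD9:12 minus GD9:00 and 694 to 1201 for GD9:12 minus GD8:15, and in the controls 671 to 1394, 402 to 1043 and 290 to 727 in the same order.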

Other observations

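In the arsenic groups, 18 of the 22 tested ATF4 pathway genes were lower at GD9:12 than at GD8:15 and limma called 9 of them, beside 13.8% of all probes, with a median difference of -0.56 beside -0.04 over all probes. In the controls 15 of 22 were lower and limma called 1, beside 7.71% of all probes, with a median of -0.10 beside -0.01. The difference between the arms was not tested, and the stages differ in number series and in the authors' scaling.

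Of the 5 eEF1 elongation factor genes, limma called 1 lower at GD9:12 than at GD8:15 in the arsenic groups, beside 13.8% of all probes. There it called 0 for GD9:00 minus GD8:15 and 0 for GD9:12 minus GD9:00, beside 4.21% and 3.88% of all probes. At an unadjusted p under 0.05 limma had 1 of the 5 higher in the former and 1 of the 5 lower in the latter. The shares of all probes at that threshold were 17.9% and 16.6%. In the controls it called 2 higher for GD9:00 minus GD8:15 and 2 lower for GD9:12 minus GD9:00, beside 15% and 11.2%, with medians of -0.07 and -0.995 over the 5 beside -0.02 and 0.03 over all probes.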
